A study of Astyanax mexicanus with 22 samples.

Results

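Histone-modifying enzymes are the proteins that add or remove methyl and acetyl groups on histone tails. In ovaries of the Mexican tetra, Astyanax mexicanus, 76 of 27420 genes in the count table belonged to these families and had 10 or more counts in at least 2 libraries. They were chosen by gene symbol (the kdm, kmt, setd, hdac, kat, sirt, prmt, ezh, suv39, ehmt, dot1l and nsd families) and that minimum. No measured difference entered the rule, although it was set with earlier results of these data known. The symbols matched 78 genes, and 2 class II and class IV deacetylase genes were left out because they stayed below the minimum, a gene labelled HDAC4 with at most 5 counts in a library and hdac11 with at most 7. The members nearest to the minimum were kat2b, HDAC7 and prmt8b, which had 10 or more counts in 8, 11 and 12 libraries. For kat2b all 8 were surface libraries. Of the 76 members, 39 were counted as writers (methyltransferases and acetyltransferases) and 37 as erasers (demethylases, deacetylases and sirtuins). Some members are best known for other substrates and were kept in their class. Among writers these are prmt3, prmt9, setd3, setd4, SETD5, setd6 and SETD9. Among erasers they are hdac10, HDAC6, kdm8, sirt3, sirt4, SIRT5 and sirt5. All 76 were among the 15607 genes abundant enough to be tested.

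Bulk RNA of ovaries was sequenced from surface fish, the eyed river form, and from fish of the Pachón cave, a blind cave form. All animals were wild type, and the groups were non-treated controls or starved fish in batches labelled old and new. Surface controls gave 4 old and 2 new libraries, and starved surface ovaries gave 2 old and 2 new libraries. Pachón controls and starved Pachón ovaries each gave 4 old and 2 new libraries. Females of about 500 and 1200 days are named for the series as a whole, but which batch had which age, and how long the fish were starved, is not stated in the sources at hand. Whether each replicate came from its own fish is not said, so p-values measure only the spread between these libraries, which may be technical. Bulk RNA comes from oocytes and somatic cells together, and fewer cells of a type cannot be told apart from less RNA per cell.

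Histones carry chemical marks whose effect depends on the residue. Methylation of lysine 4 of histone H3 (H3K4) is typical of promoters and enhancers in use, methylation of H3K36 of transcribed gene bodies, and methylation of H3K9, H3K27 and H4K20 of silenced or compact chromatin, while acetylation loosens chromatin. In a growing oocyte these marks are laid down while chromatin is remodelled and the egg's maternal stores of RNA accumulate. Many enzymes of the families need metabolites: methyltransferases use S-adenosylmethionine, acetyltransferases acetyl-CoA, sirtuins NAD, and most demethylases α-ketoglutarate.

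Libraries held 4860620 to 7513790 counts in genes (median 5861974.5). The 76 members together took 1.13% to 1.25% of them. Levels are given as CPM, counts per 1e+06 gene counts after TMM scaling, and are compared only within a gene because gene lengths were not used. The within-group SD of log2 CPM had a median of 0.182 over the members and of 0.298 over all genes tested. It was lowest for KMT2D (0.0419), which writes H3K4 methylation at enhancers, and highest for hdac9b (2.17), a class IIa deacetylase. Summed oocyte markers lay at 2690 to 3871 CPM in Pachón controls and 2796 to 3307 CPM in surface controls, and none of the 10 markers was at 0. Surface new starved library 2 stood apart with 5615 CPM of oocyte markers, against 3216 to 3465 CPM in the other starved surface libraries. Without it, 25 of the 26 calls between morphs in control fish and 22 of the 27 in starved fish were kept. In surface starvation 0 of the 2 calls were kept. Calls between morphs gained without it were KAT6B, ehmt1b, hdac4, kat7b, kmt5b, prmt1 and setd1ba in control fish. In starved fish the calls gained were KDM6A, SIRT7, kdm4b, prmt1, setd1ba and setd3. That fit called 38.4% of all genes in control and 33.8% in starved fish.

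In control fish, 10 members were higher and 16 lower in Pachón than in surface ovaries by edgeR's quasi-likelihood test at an adjusted p under 0.05, and over all genes 16.6% were higher and 18% lower. That is 26 of 76, or 34.2%, and the same test called 34.6% of all genes, so the share of members called was near that of all genes. In starved fish, 9 members were higher and 18 lower, where 18.3% of all genes were higher and 17.7% lower. This is 35.5% of the members against 36% of all genes. The same test called 18 members in both comparisons, 69.2% of the control calls and 66.7% of the starved calls. Over all genes these shares were 68.7% and 66.1%. Without surface new starved library 2 the starved count was 28, of which 22 were also called with it. The 5 calls lost were kdm1a, kmt5aa, prmt3, prmt8b and sirt2. With all libraries, the 18 members called in both comparisons had the same sign in control and starved fish, 5 higher and 13 lower. Of these 18, prmt8b and sirt2 are among the 5 starved calls lost. Among the 26 control calls, 25 had the same sign within each batch, kdm5bb being the exception, and all 27 starved calls did. Within the old batch alone 22 members were called in controls (30.4% of all genes) and 18 in starved fish (28.4% of all genes), and within the new batch 10 (14.9% of all genes) and 13 (16.7% of all genes). The members called within each batch in both comparisons were KDM1B, KDM2A, KDM5A and KMT5B. None of the other control calls held within each batch, and of the other starved calls only kat2b, setd7 and suv39h1b did.

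**Figure D1:**
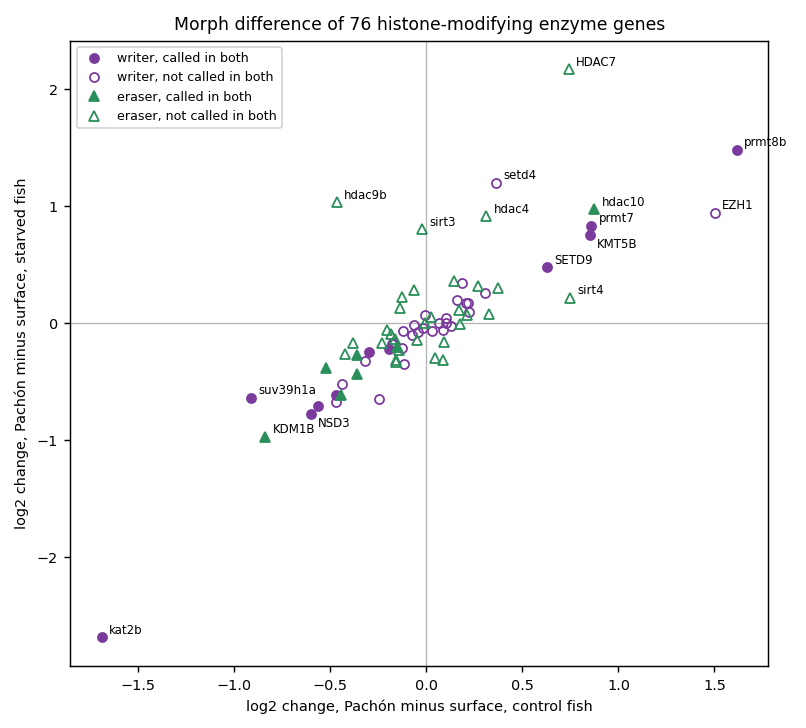
Morph difference of each of the 76 members as the log2 change, Pachón minus surface, in control fish (horizontal axis) and in starved fish (vertical axis); circles are writers, triangles erasers, and filled symbols were called in both comparisons. Of the members, 62 lie in the quadrants of equal sign, with kat2b at the lower left and prmt8b at the upper right.

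Among the methyltransferases for lysine, those for H3K4 and H3K9 that passed the test with all libraries were all lower in Pachón. For H3K4, 2 of 3 members were called lower and none higher in each comparison. The gene setd7 encodes an enzyme that adds a single methyl group to H3K4 and also modifies other proteins. Its lowest, median and highest levels were 65.2, 87.1 and 92.9 CPM over the 10 surface libraries and 43.7, 52.3 and 59.6 CPM over the 12 Pachón libraries. Every Pachón library lay below every surface library. Expression changed by -0.56 ± 0.08 on the log2 scale in control fish (SE, edgeR adjusted p = 3.16e-05) and -0.71 ± 0.09 in starved fish (edgeR adjusted p = 5.12e-06). KMT2D ranged from 830.2 through a median of 875.3 to 933.5 CPM in surface and from 696.7 through 758.0 to 804.3 CPM in Pachón ovaries. Its groups did not overlap either, although the difference was small, with log2 changes of -0.20 ± 0.05 and -0.22 ± 0.06 (edgeR adjusted p = 0.00635 in control and 0.00505 in starved fish).

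Both copies of suv39h1, whose product methylates H3K9 in constitutive heterochromatin, were lower in Pachón. Lowest, median and highest suv39h1a levels were 19.6, 25.2 and 38.2 CPM in surface and 11.96, 16.8 and 22.4 CPM in Pachón libraries. The ranges met only at their ends. The log2 change was -0.91 ± 0.15 in control fish (edgeR adjusted p = 0.000162) and -0.64 ± 0.16 in starved fish (edgeR adjusted p = 0.00453). In controls it differed between batches, at -0.40 within the old and -1.43 within the new batch. For suv39h1b the surface libraries held 65.5, 82.6 and 94.9 CPM (lowest, median, highest) and the Pachón libraries 46.3, 56.2 and 66.3 CPM, overlapping in a narrow band. This copy changed by -0.47 ± 0.10 and -0.62 ± 0.11 on the log2 scale (edgeR adjusted p = 0.00166 and 0.000293). Of the 7 members that write H3K9 methylation, these were the only ones called in either comparison with all libraries. Without surface new starved library 2, ehmt1b was also called in control fish. New-batch controls held 176.9 and 183.1 CPM of it in Pachón and 121.4 and 139.8 CPM in surface fish. In the old batch the ranges overlapped, at 156.8 to 171.8 CPM in Pachón and 154.4 to 182.6 CPM in surface controls.

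Of 4 H4K20 methyltransferase genes, 1 was called in control fish, higher in Pachón, and 3 in starved fish, 2 higher and 1 lower. KMT5B, whose product adds further methyl groups to H4K20 that is already methylated once, had 18.6, 29.9 and 43.0 CPM (lowest, median, highest) in surface and 40.4, 49.0 and 55.8 CPM in Pachón libraries. In starved fish no surface library reached a Pachón library, and in controls the ranges overlapped at their ends. It was 1.80-fold higher in control Pachón ovaries (log2 change 0.85 ± 0.15, edgeR adjusted p = 0.000318) and 1.68-fold higher in starved ones (0.75 ± 0.17, edgeR adjusted p = 0.00167). A second gene with the same symbol in lower case, kmt5b, changed by 0.16 (edgeR adjusted p = 0.054) and 0.19 ± 0.07 (edgeR adjusted p = 0.0286). The starved kmt5b call was lost without surface old starved library 1, surface new starved library 1 or either Pachón new starved library. It was also lost within either batch, without a filter, with voom weights, with limma on scaled CPM, with the replicate block and with only the compared groups. Symbols that differ only in case or in a last letter may mark near copies that share reads, so values for KMT5B and kmt5b, and for the other such pairs, are uncertain. In starved fish kmt5aa, a gene for the enzyme that places the first methyl group on H4K20, was lower in Pachón (-0.35 ± 0.11, edgeR adjusted p = 0.014), and without surface new starved library 2 it was not called (-0.17 ± 0.10, edgeR adjusted p = 0.183).

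The H3K27 methyltransferase EZH1, the catalytic subunit of the Polycomb repressive complex that prevails in resting cells of mammals, had 7 to 103 counts in a library. Control libraries ranged from 1.22 through a median of 1.96 to 4.08 CPM in surface and from 4.82 through 7.47 to 9.30 CPM in Pachón fish. These control ranges did not overlap. It was higher in Pachón controls by 1.5 ± 0.41 on the log2 scale (edgeR adjusted p = 0.00772). The call was lost without surface new control library 2 or Pachón new control library 1 (edgeR adjusted p up to 0.0518), and within the new batch. In starved fish EZH1 was not called. Starved surface libraries held 1.15 and 2.21 CPM in the old batch and 5.47 and 5.36 CPM in the new batch. Starved Pachón libraries held 4.31 to 17.3 CPM in the old batch and 4.06 and 4.66 CPM in the new batch. The related gene ezh2, of the same family as EZH1, prevails in dividing cells. It was at 161.7 to 193.3 CPM in surface and 182.6 to 215.5 CPM in Pachón controls and was not called (0.13 ± 0.06, edgeR adjusted p = 0.119). For H3K36, NSD3 was lower in Pachón by -0.60 in control (edgeR adjusted p = 0.00857) and -0.78 in starved fish (edgeR adjusted p = 0.00214). Control ranges overlapped, at 66.5 to 140.2 CPM in surface and 48.2 to 84.1 CPM in Pachón fish. Starved surface libraries held 138 and 177 CPM in the old batch and 77.6 and 80.6 CPM in the new batch. Starved Pachón libraries held 50.0 to 67.0 CPM in the old batch and 72.4 CPM in each new-batch library. The starved call was lost within the new batch. DOT1L, the H3K79 methyltransferase, changed by -0.02 ± 0.05 and -0.04 ± 0.05 (edgeR adjusted p = 0.834 and 0.557).

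Of 8 arginine methyltransferases, 2 were higher in Pachón in both comparisons, prmt7 and prmt8b. In starved fish prmt3 was called lower, a call lost without surface new starved library 2. Its levels were 12.6 to 15.9 CPM in starved surface and 3.65 to 10.9 CPM in starved Pachón libraries. The gene prmt7, whose product adds single methyl groups to arginine, had 18.3, 21.8 and 27.8 CPM in surface controls (lowest, median, highest) and 33.0, 48.6 and 53.0 CPM in Pachón controls. Starved surface libraries lay at 9.77 to 29.1 CPM and starved Pachón libraries at 35.9 to 42.4 CPM. It was the member that was higher in every Pachón than in any surface library. The log2 change was 0.86 ± 0.16 in control fish (edgeR adjusted p = 0.000492) and 0.83 ± 0.18 in starved fish (edgeR adjusted p = 0.00135). The gene prmt8b, known mostly from brain in mammals, had 2 to 33 counts in a library, at 0.456 to 1.29 CPM in surface and 0.713 to 3.99 CPM in Pachón controls. It changed by 1.62 ± 0.45 and 1.48 ± 0.50 (edgeR adjusted p = 0.0096 and 0.0259). The control call was lost within the new batch. The starved call was lost without surface old starved library 1 or 2, surface new starved library 2 or Pachón new starved library 1 (edgeR adjusted p up to 0.0984). It was also lost within either batch, with voom weights, with the replicate block and with only the compared groups. The abundant prmt1 makes most asymmetric arginine methylation in mammals. It ran from 1007 through 1146 to 1234 CPM in surface and from 1108 through 1477 to 1647 CPM in Pachón controls. With all libraries this difference was not called (0.31 ± 0.13, edgeR adjusted p = 0.0669), nor was that in starved fish. Without surface new starved library 2 both were called. That library held 1936 CPM of prmt1, against 1092 to 1345 CPM in the other starved surface libraries. Starved Pachón libraries held 1450 to 1955 CPM.

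No acetyltransferase was called higher in Pachón with all libraries, and 2 of 7 were lower in control and 3 of 7 in starved fish. Over all genes 18% and 17.7% were lower. Without surface new starved library 2, kat7b and KAT6B were also called in control fish. Pachón controls held 137.2 to 159.9 CPM of kat7b, against 116.6 to 142.2 CPM in surface controls. For KAT6B they held 26.6 to 39.1 CPM, against 36.8 to 54.8 CPM in surface controls. The gene kat5b encodes a Tip60 enzyme of a chromatin-remodelling complex. It had 91.6, 100.1 and 123.4 CPM (lowest, median, highest) in surface and 82.0, 87.8 and 93.1 CPM in Pachón controls, with an overlap at the ends. The log2 changes were -0.30 ± 0.07 and -0.25 ± 0.07 (edgeR adjusted p = 0.00223 and 0.0125). The coactivator gene kat2b was lower by -1.69 ± 0.53 and -2.69 ± 0.60 (edgeR adjusted p = 0.0182 and 0.00191), on 1 to 26 counts in a library. Pachón libraries held only 1 to 9 counts of it. It met the minimum of the rule through surface libraries alone, so its calls as lower in Pachón are not independent of that minimum. The remaining writer family, the other SET-domain genes, had SETD9 higher in both comparisons, at 0.63 ± 0.16 and 0.48 ± 0.17 (edgeR adjusted p = 0.00514 and 0.0372). Of the 5 members of this family, it was the 1 called in control fish, and setd4 was called besides it in starved fish, also higher. Starved surface libraries held 1.73 and 3.47 CPM of setd4 in the old batch and 1.13 and 1.93 CPM in the new batch. Starved Pachón libraries held 3.25, 4.31 and 7.25 CPM (lowest, median, highest), so the groups overlapped through 1 surface library. The change was 1.2 ± 0.34 (edgeR adjusted p = 0.00984), a call lost without surface old starved library 1 (edgeR adjusted p = 0.0568), within either batch and with voom weights. In controls setd4 was not called (0.36 ± 0.29, edgeR adjusted p = 0.357), and the test of the difference between treatments gave an edgeR adjusted p of 0.599.

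**Figure D2:**
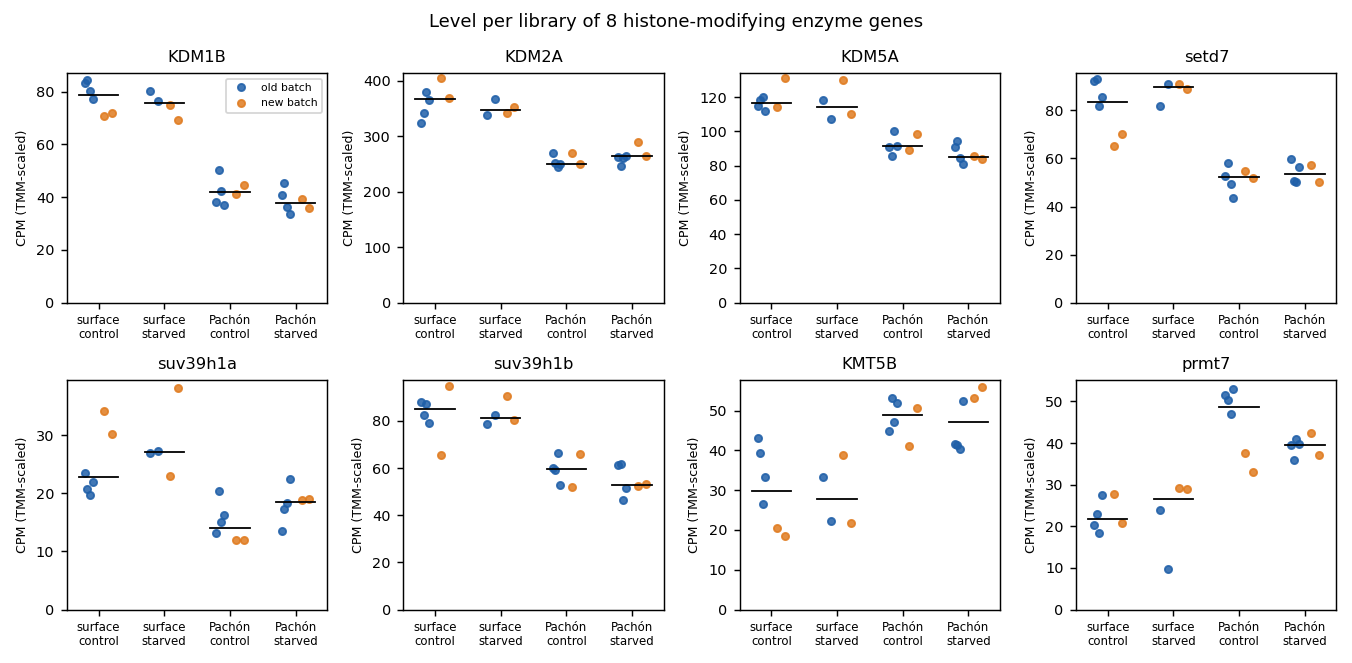
Level in CPM (vertical axes, from 0) of 8 members in each library by morph and treatment; points are single libraries coloured by batch, and bars are group medians. KDM1B, KDM2A, KDM5A and setd7 have every Pachón point below every surface point, prmt7 every Pachón point above, and the suv39h1 copies and KMT5B overlap at the ends of their ranges.

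Among the erasers, 2 H3K4 demethylases were higher and 3 lower of 6 in control fish, and 3 were lower in starved fish, while 2 of 4 H3K36 demethylases were lower in each. The member with the smallest p was KDM1B, a flavin-dependent H3K4 demethylase that in mouse oocytes is required for setting maternal DNA methylation imprints. Its lowest, median and highest levels were 70.7, 78.8 and 84.4 CPM in surface controls and 37.2, 41.9 and 50.4 CPM in Pachón controls. The starved groups lay at 69.2 to 80.4 CPM in surface and 33.5 to 45.2 CPM in Pachón fish. The morphs were thus separated by a gap in both treatments and both batches. KDM1B was 1.79-fold lower in control Pachón ovaries (log2 change -0.84 ± 0.09, edgeR adjusted p = 1.16e-06) and 1.96-fold lower in starved ones (-0.97 ± 0.10, edgeR adjusted p = 4.98e-07). Its relative kdm1a was lower in starved Pachón ovaries (-0.33 ± 0.10, edgeR adjusted p = 0.0152) and was not called in controls (-0.16 ± 0.09, edgeR adjusted p = 0.204). The test of that difference gave an edgeR adjusted p of 0.765, and the starved call was lost without surface new starved library 2 (-0.24 ± 0.11, edgeR adjusted p = 0.096).

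KDM5A, which removes methyl groups from fully methylated H3K4 at promoters, had 107.3, 116.4 and 131.4 CPM (lowest, median, highest) in surface and 81.1, 89.8 and 100.2 CPM in Pachón libraries. No library of one morph fell in the range of the other. The log2 changes were -0.36 ± 0.07 and -0.43 ± 0.07 (edgeR adjusted p = 0.000455 and 0.000175). The other genes of this family did not follow one direction. In controls kdm5bb (0.32 ± 0.08, edgeR adjusted p = 0.00559) and kdm5c (0.17 ± 0.06, edgeR adjusted p = 0.0288) were higher and kdm5ba was lower (-0.18 ± 0.06, edgeR adjusted p = 0.0267). None of these was called in starved fish, and the kdm5bb change was -0.04 within the old batch and 0.69 within the new batch.

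KDM2A, an H3K36 demethylase that binds CpG islands, held 323.2, 367.0 and 405.1 CPM in surface controls (lowest, median, highest) and 243.8, 250.2 and 270.4 CPM in Pachón controls. Starved surface libraries lay at 337.8 to 366.3 CPM and starved Pachón libraries at 245.6 to 288.5 CPM. The morphs did not overlap in either treatment. On the log2 scale KDM2A changed by -0.53 ± 0.06 in control (edgeR adjusted p = 1.72e-06) and -0.39 ± 0.06 in starved fish (edgeR adjusted p = 0.000113). Its near copy kdm2aa changed by -0.01 ± 0.07 and -0.00 ± 0.08 (edgeR adjusted p = 0.958 and 0.987), so of the pair only the first was called. Of the KDM2B copies, kdm2ba was lower in both comparisons (-0.45 ± 0.14 and -0.61 ± 0.15, edgeR adjusted p = 0.022 and 0.00465), while KDM2B itself was not called (-0.42 ± 0.26 and -0.26 ± 0.28, edgeR adjusted p = 0.215 and 0.492).

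Each demethylase named here was grouped under 1 mark, so action on a further mark was not counted. In the H3K9 group KDM3B was lower by -0.15 ± 0.05 and -0.20 ± 0.06 (edgeR adjusted p = 0.0292 and 0.00927). KDM7A and kdm7ab were called lower in controls (-0.23 ± 0.09 and -0.20 ± 0.08, edgeR adjusted p = 0.0418 and 0.0493). The kdm7ab call was lost without surface new starved library 2 (edgeR adjusted p = 0.0572). With all libraries, none of the 4 members in the H3K27 group (KDM6A, kdm6al, KDM6B and kdm6bb), which oppose the Polycomb mark, was called in either comparison by edgeR. Of these, 0 and 1 had an unadjusted p under 0.05 in control and starved fish. Without surface new starved library 2, KDM6A was called in starved fish. That library held 92.8 CPM of KDM6A, against 174.3 to 190.3 CPM in the other starved surface libraries. Starved Pachón libraries held 134.4 to 176.7 CPM.

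Class I deacetylases, which include the catalytic cores of the NuRD, Sin3 and NCoR corepressor complexes, showed no edgeR call among 4 members, 1 of which had an unadjusted p under 0.05 in each comparison. The class I gene hdac1 had 772.5, 793.7 and 817.5 CPM in surface and 662.7, 739.3 and 782.3 CPM in Pachón controls (lowest, median, highest). Its log2 change was -0.14 ± 0.08 (edgeR adjusted p = 0.199). The class IIb gene hdac10, a polyamine deacetylase by its best-known activity, had 43.7, 51.8 and 70.9 CPM in surface and 68.5, 92.5 and 144.7 CPM in Pachón controls. The ranges overlapped at their ends. It was higher in Pachón by 0.87 ± 0.20 in control and 0.97 ± 0.22 in starved fish (edgeR adjusted p = 0.0025 and 0.00208). Both calls were lost within the new batch, and the starved call with voom weights as well. Among the 7 sirtuins, NAD-dependent deacylases, sirt2 was lower in both comparisons (-0.36 ± 0.10 and -0.28 ± 0.10, edgeR adjusted p = 0.00623 and 0.0398), the starved call being lost without surface new starved library 2 (edgeR adjusted p = 0.0996). The mitochondrial sirt4 was higher in controls, at 10.0 to 15.2 CPM in Pachón against 6.29 to 9.74 CPM in surface fish (0.75 ± 0.21, edgeR adjusted p = 0.00918). That call was lost within the old and within the new batch. With single libraries left out its edgeR adjusted p reached 0.0495.

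Over all libraries, 6 members had no overlap between the 12 Pachón and the 10 surface libraries. They were prmt7, higher in Pachón, and KDM1B, KDM2A, KDM5A, KMT2D and setd7, lower. This is 7.89% of the members, and 8.50% of all genes were separated in the same way. By the roles given above, KMT2D and setd7 write and KDM1B and KDM5A remove H3K4 methylation. Class IIa deacetylases were called between morphs in starved fish, where 2 of 4 were higher in Pachón. The gene hdac4 changed by 0.91 ± 0.19 (edgeR adjusted p = 0.0011) and HDAC7, with 1 to 16 counts in a library, by 2.17 ± 0.46 (edgeR adjusted p = 0.00125). Without surface new starved library 2 the changes were 0.68 ± 0.16 and 2.08 ± 0.55 (edgeR adjusted p = 0.00253 and 0.00698). In control fish neither was called with all libraries, although without that library hdac4 was (0.32 ± 0.12, edgeR adjusted p = 0.0417). The test of the change between treatments, the difference of the starvation responses, gave an edgeR adjusted p of 0.475 for hdac4 and 0.457 for HDAC7. In the same starved comparison 5 of 10 stroma markers were higher and 1 lower in Pachón and 6 of 8 smooth muscle markers were higher, and their part in these changes was not tested.

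Starvation was compared with control within each morph, averaged over batches. In surface fish, 1 member was higher (kat8) and 1 lower (hdac4), which is 2.63% of the members, while the same test called 7.79% of all genes, 2.42% higher and 5.37% lower. The gene hdac4 encodes a class IIa deacetylase that shuttles between cytoplasm and nucleus. It had 27.2, 32.3 and 40.9 CPM in surface controls (lowest, median, highest). The starved libraries held 25.03 and 24.6 CPM in the old batch and 20.4 and 8.15 CPM in the new batch. All 4 starved libraries lay below all controls, the lowest being the new-batch library with the high oocyte marker sum. The log2 change was -0.79 ± 0.19 (edgeR adjusted p = 0.0181), with -0.46 within the old and -1.12 within the new batch.

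The acetyltransferase gene kat8 (MOF), which makes H4K16 acetylation, moved up. Surface controls held 60.6, 62.8 and 73.3 CPM (lowest, median, highest). The starved libraries held 85.4 and 73.5 CPM in the old batch and 73.6 and 111.0 CPM in the new batch. The starved libraries all lay above the controls, by little in all but the first and last. The change was 0.40 ± 0.11 on the log2 scale (edgeR adjusted p = 0.0324). Both calls depended on single libraries: hdac4 was lost without surface old starved library 1 or 2, new control library 2 or new starved library 2, and kat8 without surface old control library 3, old starved library 1, new control library 1 or 2, or new starved library 2. Without new starved library 2 the changes were -0.54 ± 0.15 for hdac4 (edgeR adjusted p = 0.073) and 0.25 ± 0.10 for kat8 (edgeR adjusted p = 0.212). The number of members called was 0 without new starved library 2 or new control library 2, 1 without old control library 3, old starved library 1 or new control library 1, 4 without old control library 4, and 20 without new starved library 1, where 26.6% of all genes were called.

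Further members came near the threshold in surface fish. The mitochondrial deacetylase gene sirt3 had 17.0, 22.7 and 26.6 CPM in surface controls (lowest, median, highest) and 27.3, 7.88, 8.36 and 4.29 CPM in the starved libraries. One old-batch starved library stayed as high as the controls while the other 3 lay below all of them, and the change was not called (-1.03 ± 0.32, edgeR adjusted p = 0.0576). The H4K20 methyltransferase gene kmt5aa was at 114.6 to 127.8 CPM in controls and 131.0 to 199.8 CPM in starved libraries (0.33 ± 0.11, edgeR adjusted p = 0.0583). Without new starved library 2, sirt3 changed by -0.83 ± 0.36 (edgeR adjusted p = 0.244) and kmt5aa by 0.17 ± 0.10 (edgeR adjusted p = 0.369). In this comparison 7 members, 9.21% of the 76, had no overlap between starved and control libraries, against 4.54% of all genes. Of these 7, chosen here for their separation, HDAC6, kat7b, kat8, kmt5aa, nsd2 and setdb1a were higher and hdac4 was lower.

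Somatic markers moved with surface starvation. Of 10 stroma markers tested 8 were lower, of 8 smooth muscle markers 5 were lower and 1 higher, and of 6 granulosa markers 3 were lower, while 1 of 10 oocyte markers was higher. The summed level of 12 stroma markers was 366.4 to 566.5 CPM in old-batch surface controls. The starved old-batch surface libraries, at 417.7 and 491.1 CPM, lay within that range. In the new batch the sums were 710.7 and 727.0 CPM in surface controls and 310.0 and 416.7 CPM in starved surface libraries. Of these markers, lum was at 0 in all starved surface libraries, but also in the 4 old-batch surface controls and in all Pachón libraries. The part of the somatic markers in the changes of hdac4, sirt3 and kat8 was not tested.

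**Figure D3:**
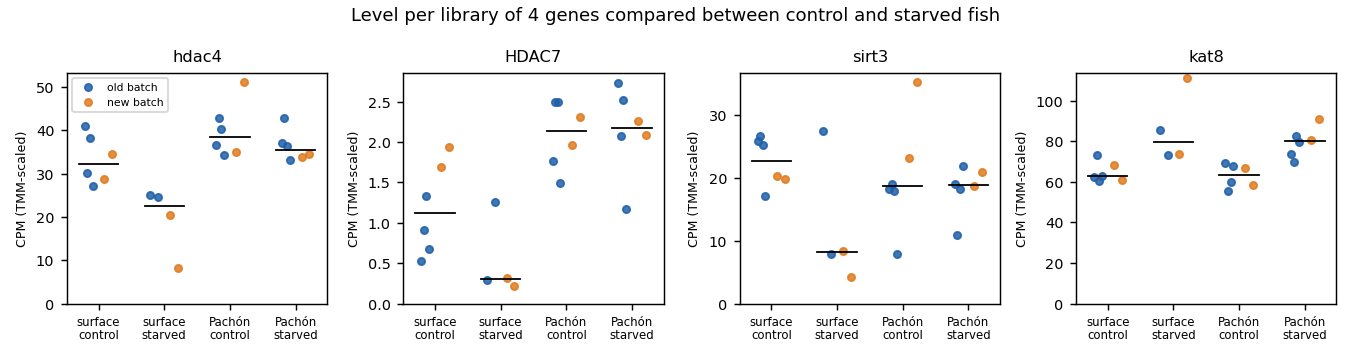
Level in CPM (vertical axes, from 0) of hdac4, HDAC7, sirt3 and kat8 in each library by morph and treatment; points are single libraries coloured by batch, and bars are group medians. Starved surface libraries lie at 8.15 to 25.03 CPM for hdac4, below the 27.2 to 40.9 CPM of surface controls, and for kat8 they lie at 73.5 to 111.0 CPM against 60.6 to 73.3 CPM.

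In Pachón fish, starvation called no member, and 0% of all genes, by edgeR. At an unadjusted p under 0.05 there were 8 members and 1142 genes, and DESeq2 called 12 genes but no member. The smallest p belonged to kat8, the member that had risen in starved surface fish. Its levels were 55.7, 63.4 and 69.1 CPM in Pachón controls and 69.7, 80.3 and 90.9 CPM in starved Pachón libraries (lowest, median, highest). The ranges did not overlap, and it was the only member of which this was true, 1.32% of the members against 0.609% of all genes. The log2 change was 0.36 ± 0.10 (edgeR adjusted p = 0.587). The next were setdb1a (0.19 ± 0.06, edgeR adjusted p = 0.617), DOT1L (-0.15 ± 0.05, edgeR adjusted p = 0.622) and kat5b (0.20 ± 0.07, edgeR adjusted p = 0.624). For hdac4 the starved Pachón libraries spanned 33.2 to 42.9 CPM and the controls 34.2 to 51.1 CPM, so the groups overlapped over most of their range.

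With all libraries the starvation response was not shown to differ between morphs for any member. The test of the difference called no member and 4 genes in all, or 0.0256%, with 2 members at an unadjusted p under 0.05, HDAC7 (1.43 ± 0.59, edgeR adjusted p = 0.457) and hdac4 (0.60 ± 0.25, edgeR adjusted p = 0.475). Without surface new starved library 1 hdac4 was called (1.01, edgeR adjusted p = 0.013), and without surface new starved library 2 it was not (0.36 ± 0.20, edgeR adjusted p = 0.62). DESeq2 called 107 genes and no member. For kat8 the difference was -0.04 ± 0.15 (edgeR adjusted p = 0.973).

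The batches were compared in controls, without knowing how they relate to the ages of the fish. In surface fish 4 members were higher and 1 lower in the old batch, 6.58% of the members against 7.36% of all genes (3% higher and 4.36% lower). The H3K4 demethylase copies kdm5bb and kdm5ba went opposite ways. The 4 old-batch controls held 164.6, 228.8, 169.2 and 190.3 CPM of kdm5bb and the new-batch controls 119.7 and 114.6 CPM. No new-batch library reached the old batch, and the log2 change, old minus new, was 0.68 ± 0.12 (edgeR adjusted p = 0.00233). For kdm5ba the old-batch controls held 231.7, 227.1, 235.1 and 241.5 CPM and the new-batch controls 311.1 and 260.2 CPM (-0.29, edgeR adjusted p = 0.0466). KMT5B was higher in the old batch as well (0.87 ± 0.23, edgeR adjusted p = 0.0258), as were sirt6 (0.78 ± 0.23, edgeR adjusted p = 0.0441) and kdm4b (0.63 ± 0.18, edgeR adjusted p = 0.0446). With each library left out in turn, the call of kdm5bb was kept, KMT5B was lost without surface old control library 1 or 2 or new control library 1 or 2, and kdm5ba, sirt6 and kdm4b were lost in 15, 14 and 15 of 22 cases. The count of 5 fell to 1 without surface new control library 1 and rose to 10 without surface new starved library 1 or 2. It was 2 or 3 without surface old control library 2 or 4, surface new control library 2, either surface old starved library, Pachón old control library 1 or 3, Pachón old starved library 1 or 2, or any new-batch Pachón library. In this comparison 7 of 10 stroma markers were lower in the old batch, and their part in it was not tested. In Pachón controls no member differed between batches, and 5 genes did, or 0.032%. There 4 members had an unadjusted p under 0.05, DESeq2 called 19 genes, and for kdm5bb the change was -0.05 ± 0.12 (edgeR adjusted p = 1).

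Writers and erasers were set side by side in each comparison. In control fish 5 of 39 writers were higher and 7 lower in Pachón, with a median log2 change of -0.02, and 5 of 37 erasers were higher and 9 lower, with a median of -0.06. The median over all genes was -0.01. In starved fish 6 writers were higher and 10 lower (median -0.06) and 3 erasers higher and 8 lower (median -0.06), with a median of 0.00 over all genes. The difference of the medians, writers minus erasers, was 0.048 in control and -0.002 in starved fish. Computed for single libraries, writers minus erasers had a pooled within-group SD of 0.0558. As an SD of single libraries, it is not the standard error of the differences between groups. The difference exceeded that SD in some alternatives. It was 0.105 in control and 0.071 in starved fish without members best known for other substrates, a setting added after the data were seen. It was 0.110 in control fish without surface new control library 1 and -0.085 in starved fish without surface new starved library 2. Of the control calls, 11 of 12 among writers and 7 of 14 among erasers were also called in starved fish. Of the starved calls, 11 of 16 among writers and 7 of 11 among erasers were also called in controls, and the difference between the classes was not tested.

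In the starvation comparisons the median of the writers was 0.03 in surface and -0.02 in Pachón fish, and that of the erasers was -0.02 in both. For the difference of the responses, 23.1% of the writers and 54.1% of the erasers had a positive sign, with medians of -0.06 and 0.03, but no member of either class was called. The share of all genes with a positive sign is not given here. Writers minus erasers was -0.091, and -0.016 with the replicate block, and the difference between the classes was not tested. Between batches the writer median was 0.05 in surface and -0.00 in Pachón controls, and the eraser median 0.00 and -0.03.

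**Figure D4:**
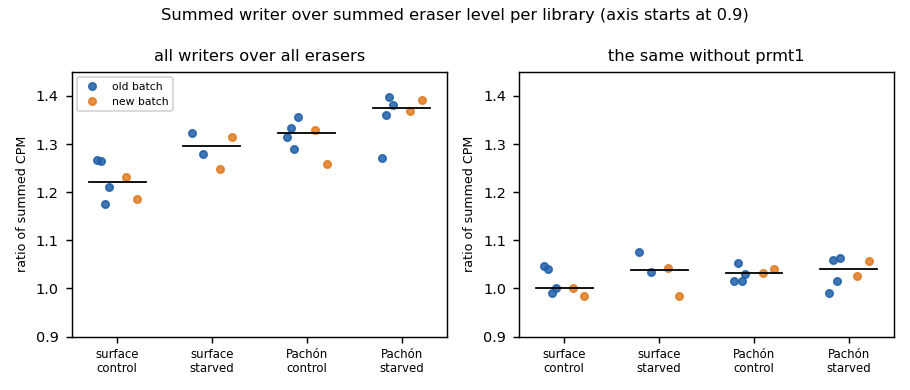
Ratio of the summed CPM of the 39 writers to that of the 37 erasers in each library (vertical axis, starting at 0.9), with all writers on the left and without prmt1 on the right; points are single libraries coloured by batch, and bars are group medians. The ratio spans 1.18 to 1.27 in surface controls and 1.26 to 1.36 in Pachón controls, and without prmt1 it spans 0.985 to 1.05 and 1.01 to 1.05.

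The summed level of all writers was 1.18 to 1.32 times that of all erasers over surface libraries and 1.26 to 1.40 times over Pachón libraries. The ranges overlapped. The gene prmt1 supplied 1007 to 1955 CPM of the writers' sum of 6391 to 7707 CPM, and without it the ratio was 0.984 to 1.08 in surface and 0.990 to 1.06 in Pachón libraries, with medians of 1.02 and 1.03. As a sum of counts, the ratio gives long and abundant transcripts the most weight.

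For 27 of the 76 members the SD of log2 CPM within groups was larger than that between group means, and hdac9b had the widest spread within groups. In Pachón fish hdac9b was at 0 to 2.90 CPM in 8 libraries and at 31.7, 32.2, 41.2 and 35.5 CPM in old control libraries 2 and 4, old starved library 2 and new starved library 2. The 10 surface libraries held 1.52 to 15.3 CPM. High and low Pachón libraries thus occurred in control and in starved fish. Its fitted changes had SEs of 1.27 to 2.27 on the log2 scale, and none was called. EZH1 was at 17.3 CPM in Pachón old starved library 3 and at 4.31 to 4.96 CPM in the other 3 of that group.

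**Figure D5:**
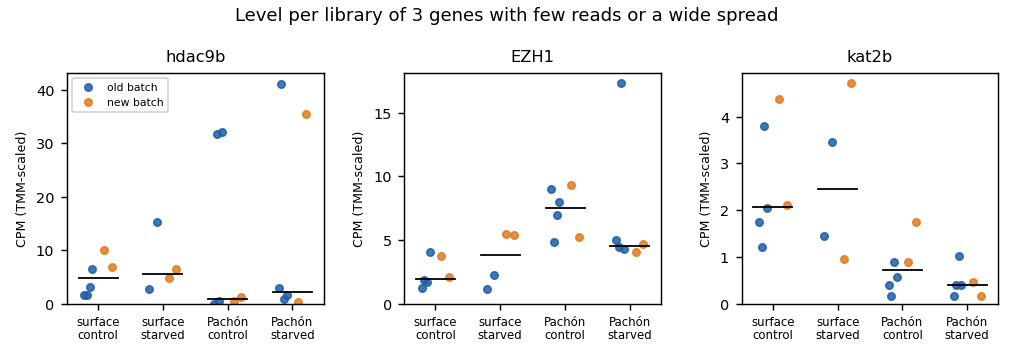
Level in CPM (vertical axes, from 0) of hdac9b, EZH1 and kat2b in each library by morph and treatment; points are single libraries coloured by batch, and bars are group medians. For hdac9b, 4 of 12 Pachón libraries lie at 31.7 to 41.2 CPM and the other 8 at or below 2.90 CPM.

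The wider pathway was followed in lists of partner subunits, readers, other modifying enzymes and enzymes of cofactor supply, 160 genes in all. In control fish 22 of them were higher and 29 lower in Pachón, and in starved fish 13 were higher and 36 lower, with medians of -0.06 and -0.07. These are 31.9% and 30.6% of the partner genes, against 34.6% and 36% of all genes. Among subunits of acetyltransferase complexes, 3 of 33 were higher and 5 lower in control fish and 3 were higher and 11 lower in starved fish. The NuRD subunit gene mbd3a was lower in both (-0.66 ± 0.06 and -0.64 ± 0.07, edgeR adjusted p = 3.81e-07 and 1.43e-06), and so was a BRPF3 gene, for a scaffold of acetyltransferase complexes (-1.34 ± 0.15 and -1.18 ± 0.16, edgeR adjusted p = 1.57e-06 and 1.30e-05). The gene idh2, whose mitochondrial product makes α-ketoglutarate, was higher in Pachón in both (0.67 ± 0.08 and 0.58 ± 0.09, edgeR adjusted p = 3.30e-06 and 4.69e-05). The Sin3 subunit gene suds3 was lower in both (-0.47 ± 0.09 and -0.88 ± 0.10, edgeR adjusted p = 0.000507 and 1.38e-06), and so was 1 of the 2 genes with the symbol EP300, an acetyltransferase (-0.26 ± 0.05 and -0.39 ± 0.05, edgeR adjusted p = 0.000446 and 1.90e-05).

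In surface starvation 4 partner genes were higher and 7 lower, 6.88% of them against 7.79% of all genes. None of these calls held with voom weights or with only the compared groups, fits that called 0% of all genes. Without surface new starved library 2, 2.57% of all genes were called, and the partner calls of that fit are not given here. The corepressor subunit gene tbl1xr1a (0.48 ± 0.08) and brdt, a reader of acetylated histones that is known from the germ line of mammals (0.80 ± 0.14), were higher, each with an edgeR adjusted p of 0.00308. A gene for methionine adenosyltransferase, mat2ab, which makes S-adenosylmethionine, was lower (-2.83 ± 0.50, edgeR adjusted p = 0.00317), and it was also lower in the old than in the new batch of surface controls (-2.45 ± 0.52, edgeR adjusted p = 0.0081). No partner gene was called in Pachón starvation, and none in the difference of the responses.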

How the data were processed

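Total RNA of ovaries was sequenced with a strand-aware, ribosome-depleted kit, per the labels' protocols. STAR 2.7.10b and RSEM were used, per the submitters' processing notes, which assign them no role. Neither build, annotation nor strand setting is stated in the sources at hand. The authors deposited whole-number counts per gene and library, used for all main tests, and a scaled CPM signal for the same libraries, used in 1 alternative. In each library, 55.4% to 67.6% of the reads listed were counted in genes, and 4 entries that name no gene were left out.

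The 22 libraries in 8 groups (morph, batch, treatment) were fitted together with edgeR 4.0.16 in R 4.3.3 (filterByExpr, minimum count 10 and minimum total 15; TMM factors 0.833 to 1.07; quasi-likelihood test, 2-sided, Benjamini-Hochberg over 15607 genes, threshold 0.05). Of the 7 comparisons, those between morphs or treatments average the batches equally, and several share libraries. Alternatives used DESeq2 1.42.0, limma 3.58.1, other filters and scalings, single batches, a replicate block and each library left out. The procedure was tested on simulated data. Same-numbered libraries did not deviate together (2 of 20 correlations over 0.1), so they were not paired. Where both groups held 2 libraries, their correlations are equal by construction, so the 20 are not all separate values. Replicates differed by more than counting error (chi-square per degree of freedom 3.75 to 36.9 over 23 pairs).

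The members, lists and tests were chosen with earlier results of these data known. For each comparison the genes named are up to 8 higher and 8 lower called members with the smallest p, the 4 smallest p where fewer than 4 were called, well-known members and copies, and 4 partner genes. KMT2D, prmt3, KDM3B, kdm5c, KDM7A, kdm7ab, KDM2B, kdm2ba and the members listed for their separation were named after their values were seen.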

Additional observations from a re-analysis of the deposited data

Results flagged for a closer look

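Within groups of 4 libraries, 1 library lay far from the other 3 in 7 of 96 checks of 32 members, and chance flags about 1 group in 20. In Pachón old control ovaries, library 4 held 7.81 CPM of sirt3 against 17.8 to 18.9 CPM. In Pachón old starved ovaries, library 4 held 52.5 CPM of KMT5B against 40.4 to 41.7 CPM, library 3 held 17.3 CPM of EZH1 against 4.31 to 4.96 CPM and 88.0 CPM of kat5b against 104.1 to 107.0 CPM, and library 2 held 245.6 CPM of KDM2A against 261.4 to 264.2 CPM. In surface old control ovaries, library 4 held 17.0 CPM of sirt3 against 25.1 to 26.6 CPM and 207.6 CPM of kdm4b against 124.1 to 129.6 CPM.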

How the results depend on the processing

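The counts of members called kept within 1.5 times their value for Pachón against surface controls (26; 18 to 32 when single libraries were left out) under the alternatives that used both batches, and within single batches it was 22 (old) and 10 (new). In starved fish the count of 27 (20 to 29 with single libraries left out) became 17 with voom weights and 16 with only the compared groups. These fits called 22.4% and 28.0% of all genes. Surface starvation (2) gave 7 with DESeq2, 0 with voom, 1 with the replicate block and 0 with only the compared groups, and 0 to 20 with single libraries left out. Over all genes, DESeq2 called 11.4%, voom 0%, the replicate block 4.31% and the fit with only the compared groups 0%. Old against new surface controls (5) gave 3 without a filter, 3 with limma on scaled CPM, 3 with the replicate block, 3 with only the compared groups and 10 with voom, and 1 to 10 with single libraries left out. The response difference gave 0 to 1, and Pachón starvation and the Pachón batch comparison stayed at 0 with single libraries left out. Writers minus erasers became 0.105 in control (0.048) and 0.071 in starved fish (-0.002) without members best known for other substrates, an alternative added after the data were seen, and -0.016 for the response difference with the replicate block (-0.091). With single libraries left out it spanned 0.026 to 0.110 (control morph), -0.085 to 0.051 (starved morph), 0.019 to 0.103 (surface starvation), -0.033 to 0.033 (Pachón starvation), -0.131 to -0.020 (response difference), -0.00706 to 0.121 (surface batches) and -0.073 to 0.061 (Pachón batches). For kdm5bb the sign reversed within the old batch, to -0.0435 in the control comparison and 0.033 in the response difference. The replicate block gave 23 control and 22 starved morph calls. Among values of named members under alternatives, 1547 kept call and sign, 121 lost a call, 8 gained one and 2 reversed. The causes were not tested. The members kat2b, HDAC7 and prmt8b had 1 to 33 counts in a library.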
